A study of Mus musculus with 24 samples.

Results

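The miR-200 family of the mouse has 5 members, which the deposited table lists as mir-200b, mir-200a, mir-429, mir-200c and mir-141. They were found by name among the 510 miRNAs of the table, and all 5 had counts in every library. The first 3 lie together in a cluster on chromosome 4, and the other 2 form a cluster on chromosome 6. Small RNA was sequenced from mammary tissue of 8 groups of 3 mice, tumor and normal at each of weeks 6, 8, 10 and 12, with 1 library per mouse. All animals were females of the FVB strain. Tumor tissue came from mice heterozygous for MMTV-PyMT, a transgene in which the MMTV promoter drives the polyoma middle T oncogene in mammary epithelium, and normal mammary glands came from age-matched FVB mice without it. The stages of the PyMT tissue were hyperplasia (week 6), adenoma or mammary intraepithelial neoplasia (week 8), early carcinoma (week 10) and late carcinoma (week 12). The study's methods describe normal gland cells within the hyperplasia and adenoma tissue, so the tumor groups of weeks 6 and 8 are mixtures. They describe the carcinoma samples as in general mostly tumor cells, with few stromal, muscle and inflammatory cells.

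miR-200 miRNAs are abundant in epithelial cells and scarce in most mesenchymal cells. They bind the messenger RNAs of Zeb1 and Zeb2, transcription factors that repress E-cadherin, and thereby help to keep cells in an epithelial state, while Zeb1 and Zeb2 in turn repress both miR-200 clusters. A miRNA recognises its targets mainly through its seed, bases 2 to 8 of the mature strand, and the family holds 2 seeds. The mature 3p strands are shown because both the seeds and the near identity of members across clusters bear on the comparisons made here. The sequences are those of RefSeq for GRCm38.p6, written 5′ to 3′ with the seed in capitals.
miR-200b-3p: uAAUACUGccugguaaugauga
miR-429-3p: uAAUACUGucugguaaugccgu
miR-200c-3p: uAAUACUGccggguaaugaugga
miR-200a-3p: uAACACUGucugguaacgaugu
miR-141-3p: uAACACUGucugguaaagaugg

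The seed AAUACUG is shared by miR-200b, miR-429 and miR-200c, and the seed AACACUG by miR-200a and miR-141. No other mature mouse miRNA of the RefSeq table carried either seed. Each cluster therefore holds both seeds, which differ at 1 base, U4C counted from the 5′ end with the base of miR-200b first. Over the first 22 bases, the seed included, miR-200b and miR-200c of different clusters differed at 2 positions (U11G and A22G), and miR-200a and miR-141 also at 2 (C17A and U22G). Each pair of neighbours within a cluster differed at 4. miR-429 was closer to its own cluster, with 4 differences from miR-200b and from miR-200a and 5 from each chromosome 6 member. Reads of such close relatives can be assigned to the wrong member where an aligner allows mismatches, and the number allowed is not given in the sources used here. The hairpins of 1 member of each cluster are shown with the 3p strand in capitals, since counts were listed by hairpin name and do not separate the 2 arms.
mir-200b hairpin: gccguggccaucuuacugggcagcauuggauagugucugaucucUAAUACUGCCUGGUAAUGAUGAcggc
mir-200c hairpin: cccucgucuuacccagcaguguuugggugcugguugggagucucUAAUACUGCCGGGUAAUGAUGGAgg

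In the mm9 assembly, all 5 hairpins lie on the minus strand, and each name had 1 locus in the annotation. The chromosome 4 cluster spans 1846 bases, with mir-200b at chr4:155429790-155429859, mir-200a at chr4:155429005-155429094 and mir-429 at chr4:155428014-155428096. All 3 hairpins lie in introns of the coding gene Ttll10 and inside the noncoding transcript Gm13648, with mir-429 in an exon of the latter. The chromosome 6 cluster spans 477 bases, with mir-200c at chr6:124668340-124668408 and mir-141 at chr6:124667932-124668003. Both hairpins lie in an intron of the noncoding transcript Gm15884, and the nearest coding genes are Phb2 and Ptpn6, at 1372 and 2317 bases from mir-200c.

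The 24 libraries held 1032241 to 3931375 counts each (median 2964452 for normal and 1690296 for tumor), and 3 counts corresponded to 0.763 to 2.91 CPM, the count scaled to the size of the library. The least counted member of the family, mir-141, had between 190 and 842 counts in every library, so depth did not limit its detection. Libraries were sequenced on 2 lanes of 12 libraries each, and every group had libraries on both. The glands held miRNAs of several tissues. Smooth muscle and fibroblast miRNAs (miR-143, miR-145, miR-199a, miR-199b and miR-214) summed to between 158619 and 276068 CPM in normal and between 70032 and 136943 CPM in tumor libraries. Skeletal muscle miRNAs reached 89335 CPM in 1 normal library. The 3 leukocyte miRNAs tested (miR-142, miR-150 and miR-155) summed to between 1681 and 3241 CPM in normal and between 1198 and 1868 CPM in tumor libraries. miR-223, a myeloid miRNA, was listed at 0 in every library, and whether this reflects its absence was not tested.

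The miR-200 family made up a larger part of the tumor libraries than of the normal libraries. Its 5 members together held 0.399% ± 0.108 (SD, n = 12) of the counts in normal libraries, between 0.242% and 0.537%, and 2.01% ± 0.318 (SD, n = 12) in tumor libraries, between 1.59% and 2.61%. Nearly all of this came from chromosome 4. The chromosome 4 cluster took 0.374% of the counts of normal and 1.91% of those of tumor libraries on average, against 0.0258% and 0.0976% for the chromosome 6 cluster. By week, the family's mean share was 0.401%, 0.446%, 0.432% and 0.318% in normal glands and 1.63%, 2%, 2.19% and 2.22% in PyMT tissue at weeks 6, 8, 10 and 12.

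The order of the mean levels was the same in both tissues, with miR-200b first, then miR-429, miR-200a, miR-200c and miR-141. The last step was within the spread of the normal libraries, where miR-200c averaged 143 ± 31.1 CPM (SD, n = 3) and miR-141 107 ± 14.5 CPM at week 6, and miR-141 was the higher in replicate 3 of that week. As shares of the family's counts, miR-200b held 59.4% ± 3.19 in normal and 65.8% ± 1.43 in tumor libraries (SD, n = 12 each). miR-429 held 22.2% ± 2.07 and 20.2% ± 1.45, and miR-200a 11.7% ± 1.15 and 9.14% ± 0.567. The chromosome 6 members were minor, with 3.96% ± 1.16 and 3.21% ± 0.528 for miR-200c and 2.78% ± 0.388 and 1.66% ± 0.164 for miR-141. The mature strands are of nearly the same length, 22 or 23 bases, so these shares do not reflect length, but the efficiency of ligation and amplification differs between small RNAs and was not measured. Among the 237 miRNAs tested, miR-200b ranked 39 to 63 by count in normal and 11 to 18 in tumor libraries. For miR-141 the ranks were 116 to 133 and 91 to 105.

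**Figure D1:**
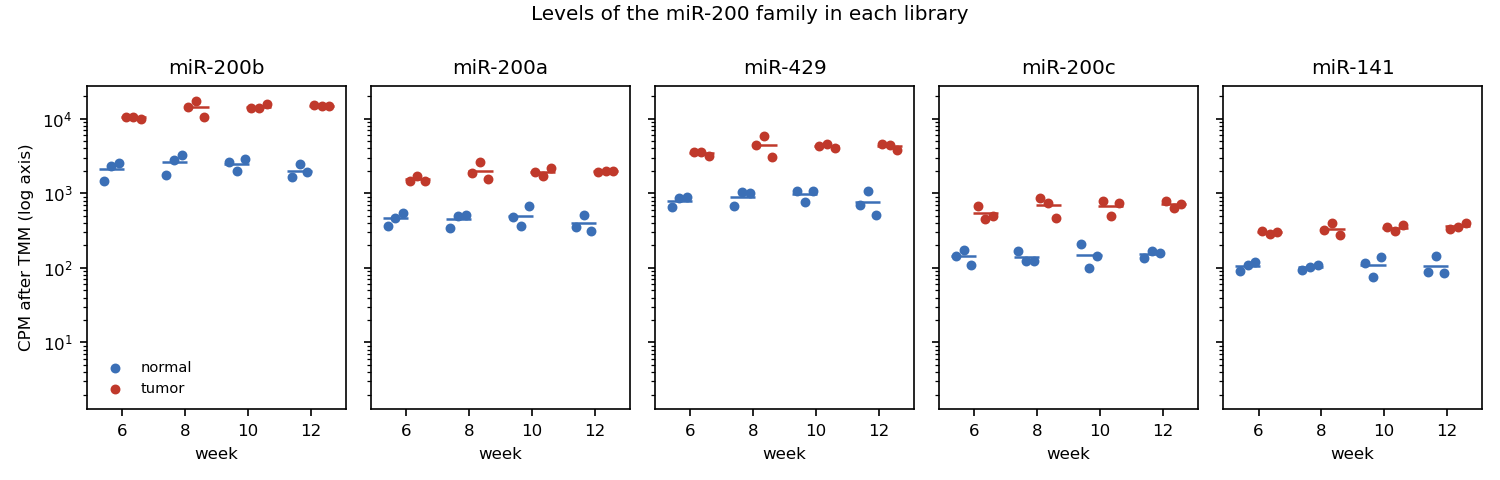
Each panel shows 1 member, with the week on the horizontal axis and CPM after TMM normalization on a log axis, 1 point per library and a line at the mean of 3 libraries. Tumor libraries lie above the normal libraries in every panel and week, and the mean levels fall from miR-200b to miR-141.

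miR-200b, the most counted member, was measured in normal glands at 1471, 2309 and 2580 CPM in week 6 (by replicate number), 1748, 2806 and 3259 in week 8, 2631, 1965 and 2878 in week 10, and 1643, 2474 and 1934 in week 12. In PyMT tissue it stood at 10610, 10723 and 10073 CPM in week 6, 14539, 17482 and 10486 in week 8, 13874, 13874 and 15653 in week 10, and 15076, 14639 and 14878 in week 12. Every tumor library lay above every normal library, and the lowest tumor value was 3.09 times the highest normal value. The replicates of PyMT tissue were close at weeks 6 and 12 and spread most at week 8, where replicate 3 was the lowest for all 5 members.

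miR-200a, the member with the other seed in the same cluster, had 365, 468 and 549.5 CPM in normal glands in week 6, 339, 495 and 513 in week 8, 476, 363 and 668 in week 10, and 353, 519 and 316 in week 12. In PyMT tissue the values were 1480, 1688 and 1462 CPM in week 6, 1860, 2662 and 1534 in week 8, 1934, 1732 and 2174 in week 10, and 1933, 1969 and 2002 in week 12. The tissues did not overlap, with the lowest tumor value 2.19 times the highest normal value. miR-429, the third member on chromosome 4, ranged from 517 to 1081 CPM with a median of 872 in normal libraries, and from 3070 to 5928 CPM with a median of 4170 in tumor libraries.

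miR-200c, first in the chromosome 6 cluster, had 146.5, 172 and 109.9 CPM in normal glands in week 6, 169, 125 and 125 in week 8, 212, 98.8 and 142 in week 10, and 135, 168 and 156 in week 12. In PyMT tissue it had 678, 454 and 494 CPM in week 6, 868, 737 and 471 in week 8, 800.1, 503 and 740.4 in week 10, and 790.0, 626 and 713 in week 12. Replicate 1 was the highest of the 3 tumor libraries at each of the 4 weeks, and the tissues did not overlap, the lowest tumor value being 2.14 times the highest normal value. miR-141 ranged from 74.6 to 143.5 CPM in normal libraries and from 274 to 406 CPM in tumor libraries, and its lowest tumor value was 1.91 times its highest normal value, the narrowest gap of the family. Complete separation of the 12 tumor from the 12 normal libraries in this direction was found for 44 of the 237 tested miRNAs (18.6%), among them the 5 members.

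The first comparison asked how each member differed between PyMT and normal tissue at each stage. All 5 members were over-expressed in tumor at all 4 weeks. The call was an adjusted p-value under 0.05 (Benjamini-Hochberg over the 237 miRNAs) in the quasi-likelihood test of edgeR. Of all tested miRNAs, this rule called 29.1% over-expressed in week 6, 21.9% in week 8, 32.9% in week 10 and 29.1% in week 12. The highest adjusted p-value of any member was 0.00184, 0.00366, 0.00161 and 0.00159 at these weeks. Within each week, the 3 tumor values of every member exceeded its 3 normal values, and the same held for 34.2%, 32.1%, 36.3% and 33.3% of the tested miRNAs. The median log2 fold change of the members was 1.92, 2.26, 2.14 and 2.32, against −0.12, −0.09, −0.15 and −0.19 over all tested miRNAs. In bulk tissue, more cells of a type and more of a miRNA per cell cannot be told apart. These differences are therefore of tissue, and levels per cell were not measured.

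The fold changes differed in size between the members. For miR-200b the log2 fold change was 2.30 ± 0.22 (SE), 2.42 ± 0.29, 2.53 ± 0.16 and 2.88 ± 0.22 over the successive weeks, from 4.94-fold to 7.36-fold. At the other end, miR-141 had 1.48 ± 0.21, 1.69 ± 0.27, 1.66 ± 0.25 and 1.78 ± 0.26, from 2.79-fold to 3.45-fold. Those of miR-429 lay between 2.11 and 2.50, those of miR-200c between 1.92 and 2.26, and those of miR-200a between 1.75 and 2.32.

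**Figure D2:**
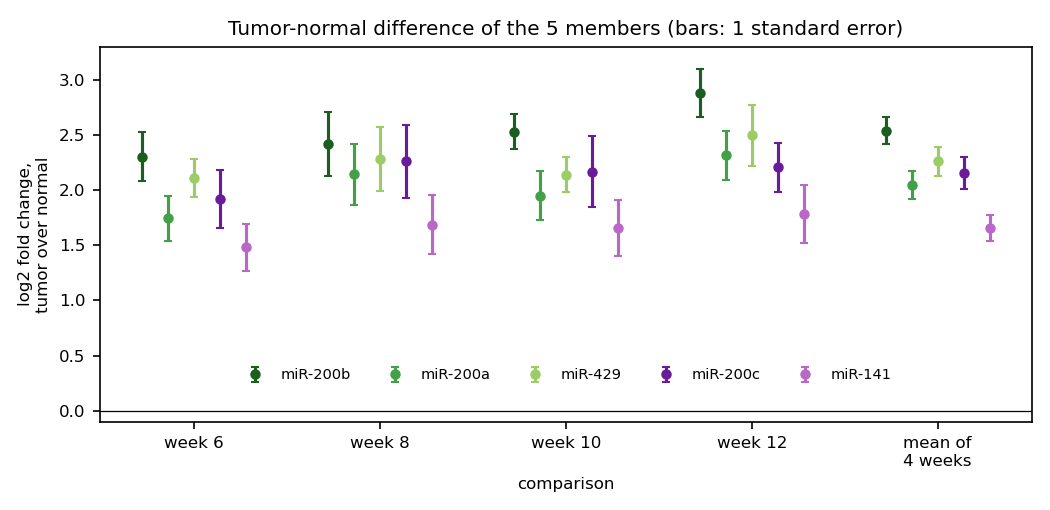
Points give the log2 fold change of tumor over normal for each member at each week and for the mean of the 4 weeks, and bars 1 standard error of the edgeR fit. The order is miR-200b at the top and miR-141 at the bottom at every week, with the other members between them.

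Over the mean of the 4 weeks, in a fit of all 24 libraries, 38.8% of the tested miRNAs were over-expressed, the 5 members among them. miR-200b rose most in the family, by 2.54 ± 0.12 on the log2 scale (5.82-fold, adjusted p = 8.79e-13 in edgeR), which placed it at rank 11 of 237 by fold change. It was followed by miR-429 with 2.26 ± 0.13 (rank 13) and miR-200c with 2.15 ± 0.14 (rank 16). The members with the AACACUG seed came last, miR-200a with 2.04 ± 0.13 (rank 18) and miR-141 with 1.66 ± 0.12 (rank 30, adjusted p = 2.56e-10 in edgeR). Fitted within lane 1 and within lane 2, miR-200b gave 2.70 ± 0.18 and 2.36 ± 0.18, and miR-141 gave 1.74 ± 0.14 and 1.55 ± 0.18. The order of the remaining members was not the same on both lanes, since miR-200c lay below miR-200a on lane 1, at 2.17 against 2.20, and above miR-429 on lane 2, at 2.11 against 2.09.

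The next comparison asked whether the difference changed from hyperplasia to late carcinoma. No member was called by the joint edgeR test for a tumor-normal difference that varied between weeks, with unadjusted p-values between 0.375 and 0.82 and adjusted p-values between 0.938 and 0.971. Of the 237 miRNAs 0% were called by this test, 9 had an unadjusted p-value under 0.05, and the likelihood ratio test of DESeq2 called 0 miRNAs. Within PyMT tissue, miR-200b was 0.51 ± 0.24 (SE, log2) higher at week 12 than at week 6, with an unadjusted p-value of 0.0446 and an adjusted p-value of 0.182 in edgeR. The other members had log2 differences between 0.28 and 0.39 in the same direction, with adjusted p-values up to 0.44, while 7.59% of the tested miRNAs were called and 61 had an unadjusted p-value under 0.05. Within normal glands, the members' differences between weeks 12 and 6 lay between −0.22 and 0.10, with adjusted p-values from 0.589 to 0.958 in edgeR and no unadjusted p-value under 0.05. There, 21.1% of the tested miRNAs were called, and 75 had an unadjusted p-value under 0.05. The 2 courses use the week 6 and week 12 libraries that also enter the weekly comparisons.

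The 2 clusters were then compared through ratios of members counted in the same library, which do not depend on the normalization. Pairs of the same seed across the clusters were taken, miR-200b over miR-200c and miR-200a over miR-141, and beside them 3 pairs within a cluster. Tumor and normal libraries were compared by exact permutation of the labels within weeks, two-sided, with adjustment over the 5 ratios, and 160000 assignments allowed no p-value under 1.25e-05. A single week of 3 against 3 libraries cannot give a p-value under 0.1.

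Both ratios across the clusters were higher in tumor. The miR-200a/miR-141 ratio was 4.22 in normal and 5.52 in tumor libraries (geometric means, n = 12 each), or 2.08 ± 0.16 and 2.46 ± 0.13 on the log2 scale (SD). The difference of 0.39 in log2 had an exact adjusted p-value of 3.13e-05, the raw p-value being the smallest these assignments can give. It had the same sign in all 12 pairs of tumor and normal libraries with the same week and number, which no source says were matched, and 11 of the 12 tumor libraries lay above all normal libraries. By week the difference was 0.27, 0.45, 0.29 and 0.53, without overlap of the 3 tumor and 3 normal libraries at any of the 4 weeks. miR-200a thus rose more than miR-141.

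The miR-200b/miR-200c ratio varied more between libraries. Its geometric mean was 15.6 in normal and 20.7 in tumor libraries, or 3.96 ± 0.48 and 4.37 ± 0.24 in log2 (SD, n = 12 each). The difference of 0.41 had an exact adjusted p-value of 0.021, was 0.42, 0.19, 0.34 and 0.69 by week, and was free of overlap at 1 week, week 12. The ratio was higher in tumor in 10 of 12 same-numbered pairs. The call depended on which libraries entered. Within lane 1 the difference was 0.56 (exact adjusted p = 0.0417) and within lane 2 it was 0.14 (exact adjusted p = 0.306). Without the 4 normal libraries of replicate 1 it was 0.17 (exact adjusted p = 0.249), without tumor replicate 2 it was 0.29 (0.15), and without tumor replicate 3 it was 0.39 (0.072). Replicate 1 had the lowest mean ratio in both tissues, at 3.48 in normal and 4.10 in tumor libraries (n = 4 each). Its part in the changes of this difference was not tested.

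Differences of this size were also present inside each cluster. miR-200b rose more than miR-200a, with ratios of 5.09 in normal and 7.21 in tumor libraries and a log2 difference of 0.50 (exact adjusted p = 3.13e-05, higher in 12 of 12 same-numbered pairs, no overlap at any week). On chromosome 6, the miR-141/miR-200c ratio was 0.726 in normal and 0.521 in tumor libraries, a log2 difference of −0.48 (exact adjusted p = 0.00194, lower in 11 of 12 pairs), although tumor and normal libraries overlapped at each of the 4 weeks. In both clusters, then, the member with the AACACUG seed rose less than a neighbour with the AAUACUG seed. Members that share a seed also differed, since the miR-200b/miR-429 ratio was 2.68 in normal and 3.27 in tumor libraries, a log2 difference of 0.28 (exact adjusted p = 0.00194, higher in 12 of 12 pairs). Within lane 2, the last 2 of these 3 ratios kept their sign with exact adjusted p-values of 0.0694 each, at log2 differences of −0.58 for miR-141/miR-200c and 0.21 for miR-200b/miR-429.

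**Figure D3:**
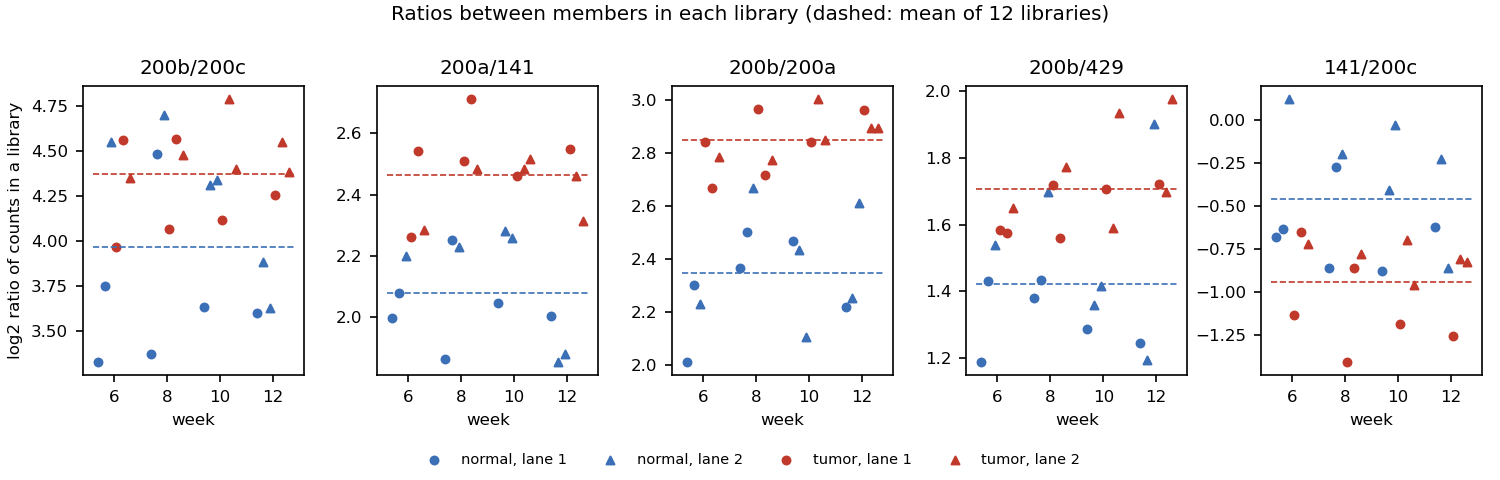
Each panel shows the log2 ratio of 2 members in each library by week, with the lane as the marker shape and dashed lines at the means of the 12 normal and 12 tumor libraries. The miR-200a/miR-141 and miR-200b/miR-200a ratios separate the tissues at each week, while the 2 ratios with miR-200c overlap at most weeks or all.

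The last comparison asked how far members of the 2 clusters varied together between libraries of the same tissue, on the log2 CPM scale. miR-200a and miR-141 did so in both tissues. Pearson's r was 0.874 over the 12 normal libraries (permutation p = 0.00026, adjusted over 4 relations 0.00052) with Spearman's rho of 0.853 (p = 0.00088, adjusted 0.00176), and r was 0.829 without the 2 libraries farthest from the median of miR-200a. Over the 12 tumor libraries r was 0.868 (permutation p = 0.00021, adjusted 0.00052), rho 0.937 (p = 9e-05, adjusted 0.00036), and r without 2 libraries 0.85. Libraries of 1 tissue span 4 weeks and 2 lanes, which both members of a pair share.

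miR-200b and miR-200c showed no such relation in normal glands, with r of −0.0541 (permutation p = 0.867, adjusted 0.867), rho of −0.196 (p = 0.542, adjusted 0.542) and r of −0.11 without 2 libraries. In normal libraries this r turned positive within lane 1 (0.233), within lane 2 (0.0684) and when library sizes alone set the scale (0.222). In tumor libraries r was 0.702 (permutation p = 0.0124, adjusted 0.0165), but rho was 0.58 (p = 0.0515, adjusted 0.0687) and r without 2 libraries 0.534. Whether the correlations differ between normal and tumor tissue was not tested. Among normal libraries, r of miR-200c with miR-141, its neighbour at chromosome 6, was 0.33, while the remaining 3 pairs within a cluster gave a maximum of 0.887, as a description over 12 libraries. Across the clusters, miR-141 had r of 0.769 with miR-429 and 0.677 with miR-200b in normal libraries. There miR-200c had −0.0397 with miR-200a and 0.0592 with miR-429. In tumor libraries the 6 pairs across the clusters lay between 0.553 and 0.868.

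**Figure D4:**
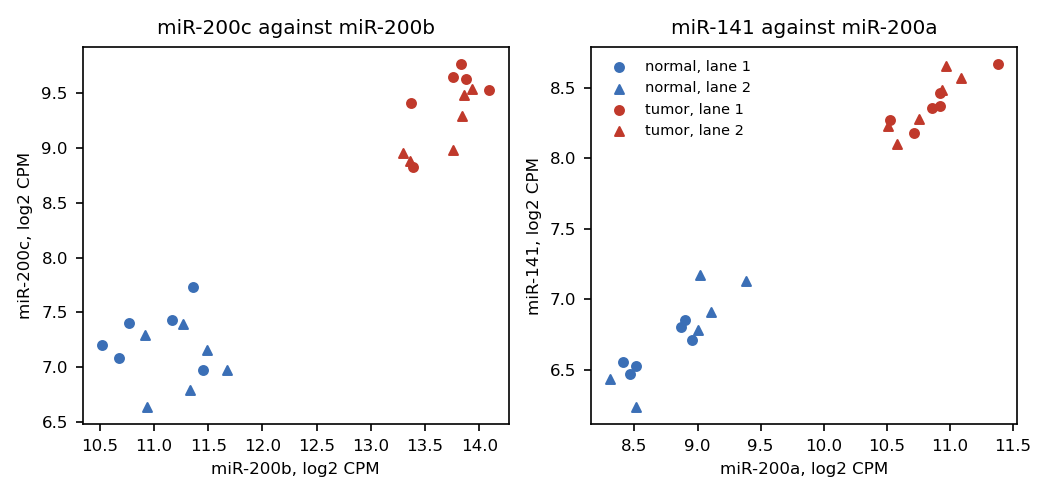
The left panel plots log2 CPM of miR-200c against miR-200b and the right panel miR-141 against miR-200a, 1 point per library, with tissue as the colour and lane as the marker shape. Normal and tumor libraries form separate clouds in both panels, and within the normal cloud miR-141 rises with miR-200a while miR-200c shows no trend with miR-200b.

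Other miRNAs of epithelial cells were read beside the family, from a list of 6. At each week 4 of the 6 were over-expressed in tumor, against 29.1%, 21.9%, 32.9% and 29.1% of all tested miRNAs by week. The 4 were the cluster of miR-183, miR-96 and miR-182, with log2 fold changes of 2.19 ± 0.17, 1.81 ± 0.17 and 2.02 ± 0.09 (SE) over the mean of the weeks, and miR-375 with 2.31 ± 0.22. These values lie within the range of the family's own. The list did not move as a whole. miR-205, a miRNA of basal and myoepithelial cells, was at 0.29 ± 0.29 (adjusted p = 0.333 in edgeR) and was called at no week, and miR-203, which is known from stratified epithelium, fell by 0.70 on the log2 scale over the mean of the weeks (adjusted p = 0.00756 in edgeR). It was called at 1 week, week 12, at −1.87 (adjusted p = 0.039 in edgeR), and was between −0.40 and −0.26 at the other weeks. The summed level of the list ranged from 12351 to 26283 CPM in normal and from 41649 to 71336 CPM in tumor libraries.

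Among miRNAs of other cell types, those of smooth muscle, fibroblasts and endothelium were lower in tumor at every week. Those tested of skeletal muscle and erythroid cells were lower over the mean of the weeks, and the leukocyte and fat lists were mixed. All 5 smooth muscle and fibroblast miRNAs were under-expressed in tumor at every week, with a median log2 fold change of −1.22 over the mean of the weeks, and so was miR-126 of endothelial cells, at −1.25. Under-expression was called for 29.5%, 13.5%, 27.4% and 21.5% of all tested miRNAs by week, and for 46.8% over the mean of the weeks. The skeletal muscle miRNAs tested (3 of 4 listed) were called under-expressed at week 12, 1 of them (miR-133a) at week 8, and none at weeks 6 and 10. Over the mean of the weeks all 3 were called under-expressed, at a median log2 fold change of −3.16, and so were all 3 erythroid miRNAs, at −1.23. Of the leukocyte miRNAs, miR-150 of lymphocytes was under-expressed at every week, while miR-142, which is shared by most blood cells, and miR-155, which is induced in activated lymphocytes and macrophages, were at −0.13 and 0.17 and were called at no week. The lists of erythroid and fat miRNAs, 3 members each, gave 1, 0, 1 and 3 under-expressed miRNAs and 0, 0, 1 and 1 by week, and of the fat list miR-193b was over-expressed at week 6, at 0.68. The miRNAs called here and in the epithelial list differed between the same tumor and normal libraries as the miR-200 family, some in its direction and others against it. Their part in the family's difference was not tested.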

How the data were processed

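Small RNA libraries (TruSeq kit, HiSeq) of 3 tumor and 3 normal mice per week were analysed. The authors trimmed barcode and adaptor, aligned reads of 17 to 27 bases with Bowtie and counted reads overlapping more than 50% of a miRBase miRNA. The deposited values are these raw counts per miRNA name. The study's methods name mm10, and the labels mm9. Groups, weeks, lanes and replicate numbers came from the labels.

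miRNAs kept by filterByExpr were tested with edgeR 4.0.16 in R 4.3.3 (TMM, quasi-likelihood test, Benjamini-Hochberg adjustment, threshold 0.05). CPM values are after TMM. SE is the log2 fold change divided by the square root of F. Log2 CPM used a prior count of 2 and ratios a pseudocount of 0.5. Ratios were tested by exact permutation within weeks and correlations by 100000 permutations, two-sided, with Python 3.11.15, numpy 2.4.6, scipy 1.17.1 and matplotlib 3.10.9. Count floors cover counting error only, since amplified reads are not independent molecules, and 3 mice per group limit the precision further. Scripts were tested on simulated data.

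Named miRNAs were the 5 members, the marker lists, and the 3 miRNAs most correlated with each cluster's mean log2 CPM in each tissue. Members and lists were chosen with earlier results of these data known. Alternatives were DESeq2 1.42.0 and its size factors, library sizes only, edgeR's classic exact test, other filters and pseudocounts, a single fit, the lane, the replicate block, the 5 most counted miRNAs left out before scaling, a minimum log2 fold change of 1, and leaving out each replicate. Libraries with the same number and week deviated from their group means with r between 0.0312 and 0.816 over miRNAs, over 0.1 in 10 of 12 pairs. Pairing was to be assumed only where every pair exceeded 0.1, so the block was kept as an alternative.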

Additional observations from a re-analysis of the deposited data

How the results depend on the processing

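The 5 members were called over-expressed in tumor at each week and over the mean of the weeks under all 85 alternatives run, with adjusted p-values up to 0.0194. No member was called for a change between weeks under 14 alternatives of the joint test, or between weeks 12 and 6 under 15 each in tumor and normal tissue, where the lowest adjusted p-values were 0.685, 0.061 and 0.243. With library sizes only, the median log2 fold change of all tested miRNAs moved by −0.14, −0.13, −0.02 and 0.18 at weeks 6, 8, 10 and 12.

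Fits with the replicate block called 5 members at each week and changed no call of a member. Over-expressed miRNAs among all tested numbered 64, 63, 80 and 66 by week in these fits, against 69, 52, 78 and 69. Exchanging labels within same-numbered pairs left the miR-200b/miR-200c difference at 0.408 (exact adjusted p = 0.00635). Deviations of same-numbered libraries correlated positively in 12 of 12 pairs, a hint of a shared effect. Same-numbered libraries of a week were also sequenced on the same lane, and the part of the lane in this was not tested. Deviations of differently numbered libraries correlated negatively in 18 of 24, and 9 of 12 tumor libraries correlated best with the normal library of their own number. Since deviations cancel within a group, these counts follow largely from the first and add no separate evidence. Within lane 2, 3 ratios lost the threshold, miR-200b/miR-200c (0.138), miR-200b/miR-429 (0.212) and miR-141/miR-200c (−0.578). Each lane has 144 assignments, which limits the p-value on both. With each replicate left out in turn, miR-200b/miR-200c ranged from 0.168 to 0.578 and lost the threshold without tumor replicate 2 (0.287), tumor replicate 3 (0.394) or normal replicate 1 (0.168), miR-200a/miR-141 ranged from 0.336 to 0.419, miR-200b/miR-200a from 0.46 to 0.53, miR-200b/miR-429 from 0.21 to 0.393 and miR-141/miR-200c from −0.629 to −0.326, and the last 4 ratios stayed past the threshold. The cause of the changes in miR-200b/miR-200c was not tested.

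The correlation of miR-200b with miR-200c in normal libraries turned positive with library sizes only (0.222), in lane 1 (0.233) and in lane 2 (0.0684). With 6 libraries per lane the remaining correlations kept their sign and lost the adjusted threshold, at 0.892 and 0.875 for miR-200a with miR-141 in normal, 0.908 and 0.903 in tumor, and 0.668 and 0.835 for miR-200b with miR-200c in tumor (lanes 1 and 2). The number of over-expressed miRNAs among all tested fell from 69 to 44 at week 6 and from 52 to 32 at week 8 without tumor replicate 1, and to 33 at week 8 with library sizes only. Without tumor replicate 2, the joint test of weeks called 2 miRNAs, none a member, against 0. Higher calls between weeks 12 and 6 ranged from 0 to 21 in tumor (10 in the reported fit) and from 2 to 22 in normal glands (13).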

Other observations

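The ratios with miR-200c differed between replicate numbers, a pattern chosen after its values were seen. The log2 ratio of miR-200b to miR-200c was 3.48 ± 0.16 in the 4 normal libraries of replicate 1 (SD over weeks), against 4.11 ± 0.35 and 4.30 ± 0.47 in replicates 2 and 3. In tumor libraries the same ratio was 4.10 ± 0.12, against 4.62 ± 0.11 and 4.40 ± 0.05. The miR-141/miR-200c ratio was likewise lowest in replicate 1, at −0.76 in normal and −1.25 in tumor libraries, while that of miR-200a to miR-141 differed less, at 1.98, 2.12 and 2.14 in normal and 2.45, 2.55 and 2.40 in tumor libraries. All replicate 1 libraries were sequenced on lane 1, and replicate 2 libraries of weeks 6 and 8 were too. The part of the lane, or of other steps shared by a replicate number, was not tested apart from the lane values given above.

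The miRNAs whose levels most resembled each cluster's mean log2 CPM are given as a description over 12 libraries, which share week, lane and scaling. For the chromosome 4 cluster in normal glands they were miR-19a (r = 0.891), miR-183 (0.889) and miR-20a (0.885), and in tumors miR-31 (0.931), miR-27b (0.904) and miR-23b (0.901). All 6 were over-expressed in tumor, with log2 fold changes over the mean of the weeks between 1.33 for miR-20a and 3.35 for miR-31 (adjusted p of 4.79e-06 and 8.79e-13 in edgeR). Of all tested miRNAs, 38.8% were over-expressed over the mean of the weeks. The mean of the chromosome 6 cluster joins 2 members that correlated at r = 0.33 in normal and 0.675 in tumor libraries. This cluster mean had other neighbours. They were miR-669c (0.748), miR-146b (0.618) and miR-669o (0.599) in normal glands, and miR-125a (0.791), miR-92b (0.782) and miR-297b (0.765) in tumors. Among these, miR-125a differed from the family in the tumor-normal comparison, at a log2 fold change of 0.02 (adjusted p = 0.882 in edgeR). miR-669c, miR-669o and miR-297b have near-identical copies in the genome, so their counts are uncertain.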
